A study of Mus musculus with 60 samples.

Results

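The glutamate and GABA receptor subunit genes were examined in polyA RNA-seq of the striatum of 60 mice, 1 library per mouse. Genes were included by symbol: the AMPA (Gria), kainate (Grik), delta (Grid), NMDA (Grin) and metabotropic (Grm) glutamate receptors, and the GABA-A (Gabra, Gabrb, Gabrg, Gabrd, Gabre) and GABA-B (Gabbr) receptors. Of 42 symbols that match, 33 were among the 9066 genes of the table, with 473 exon rows among 114691. Gabra2, Gabra5, Gabra6, Gabre, Gabrg1, Grin2d, Grin3b, Grm2 and Grm6 were not analysed here. All 33 genes averaged over 10 normalized counts and were tested, as were 369 of their exon rows.

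All mice were heterogeneous stock-collaborative cross (HS-CC) animals, an outbred stock founded on several inbred strains, from generations bred selectively for haloperidol response. Each was scored for catalepsy, the loss of voluntary movement that this dopamine D2 receptor blocker can cause, as a responder or a non-responder. Of the 30 responders 15 were female and 15 male, and of the 30 non-responders 13 were female and 17 male. Ages were not given in the sources used here. Outbred mice differ in genotype. Neither genotypes nor selection lines of the single mice were given, so phenotype and breeding cannot be told apart.

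Fast excitation in the brain is carried by ionotropic glutamate receptors, tetrameric cation channels built from AMPA, kainate or NMDA subunits, and fast inhibition by pentameric GABA-A chloride channels. Metabotropic glutamate receptors and the GABA-B receptor, an obligate pair of Gabbr1 and Gabbr2 products, act through G proteins. The striatum receives glutamate from cortex and thalamus, and its principal cells, the medium spiny neurons, release GABA and also receive it.

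Library depth fell into 2 classes, with 4913122 to 9507322 reads in 17 mice (shallow) and 12051239 to 21872744 in 43 mice (deep). The shallow libraries were mouse 26 and mice 41 to 56, and they held 4 or 5 mice of each group. Coverage along genes was summarised per mouse as a 3′ bias, the slope of log2 exon values from the 5′ to the 3′ end relative to the other mice. It was 1.56 in mouse 63, a female responder, 0.931 in mouse 5, 0.705 in mouse 4 and 0.485 in mouse 62, against -0.306 to 0.188 in the other 56. These 4 mice came 1 from each group. Of 12 medium spiny neuron markers 9 were in the table and none was at 0 in any mouse, and their summed normalized count was from 88460 to 153887 in responders and from 79488 to 172854 in non-responders. Bulk tissue was sequenced, so that fewer cells of a type and less RNA per cell cannot be told apart.

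AMPA receptor genes carry a pair of mutually exclusive exons, flip and flop, in the segment that encodes part of the ligand-binding domain, and the choice is known to set how the channel desensitizes. Both exons have the same length in Gria1 to Gria4. They are printed because the flip to flop ratio rests on them. Capitals mark the bases at which flip and flop of the same gene differ. Sequences run 5′ to 3′ on the coding strand and come from the GENCODE M21 transcripts (GRCm38).

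Gria1 flip: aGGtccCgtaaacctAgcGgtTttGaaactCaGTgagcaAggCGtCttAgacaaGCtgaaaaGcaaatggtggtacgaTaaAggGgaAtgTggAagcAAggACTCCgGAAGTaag
Gria1 flop: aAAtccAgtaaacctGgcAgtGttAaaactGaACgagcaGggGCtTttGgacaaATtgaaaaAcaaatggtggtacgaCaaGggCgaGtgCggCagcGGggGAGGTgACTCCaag
Gria2 flip: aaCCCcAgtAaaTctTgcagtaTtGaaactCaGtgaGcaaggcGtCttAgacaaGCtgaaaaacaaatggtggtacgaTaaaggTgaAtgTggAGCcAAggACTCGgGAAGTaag
Gria2 flop: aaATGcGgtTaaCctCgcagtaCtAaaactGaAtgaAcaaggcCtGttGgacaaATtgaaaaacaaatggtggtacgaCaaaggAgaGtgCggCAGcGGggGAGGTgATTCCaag
Gria3 flip: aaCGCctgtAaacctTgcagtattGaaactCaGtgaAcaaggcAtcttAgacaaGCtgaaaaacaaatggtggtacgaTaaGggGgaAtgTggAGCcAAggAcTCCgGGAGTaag
Gria3 flop: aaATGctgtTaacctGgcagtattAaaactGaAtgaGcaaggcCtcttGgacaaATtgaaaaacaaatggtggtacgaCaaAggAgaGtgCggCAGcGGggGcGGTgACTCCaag
Gria4 flip: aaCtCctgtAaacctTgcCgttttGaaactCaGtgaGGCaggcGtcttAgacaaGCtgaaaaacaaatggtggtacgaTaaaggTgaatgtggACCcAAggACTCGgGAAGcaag
Gria4 flop: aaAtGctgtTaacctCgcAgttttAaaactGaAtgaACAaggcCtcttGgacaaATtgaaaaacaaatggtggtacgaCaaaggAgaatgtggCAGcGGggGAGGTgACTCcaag

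In GRCm38 the flip and flop exons of Gria1 lie at chr11:57310608-57310722 and chr11:57309769-57309883 on the plus strand. Those of Gria2 lie at chr3:80690404-80690518 and chr3:80691320-80691434 on the minus strand. Those of Gria3 lie at chrX:41669501-41669615 and chrX:41654810-41654924 on the plus strand, and those of Gria4 at chr9:4427030-4427144 and chr9:4432773-4432887 on the minus strand. In all 4 genes flop comes first in the transcript. The exon rows carry only start positions of mm9, and they were matched to the annotated exons by the spacing of starts within a gene, with no coordinate converted. No coding transcript of the annotation holds both exons of a pair. Within a gene the 2 exons are identical at 68.7% of bases in Gria1 and Gria2, 72.2% in Gria3 and 73.0% in Gria4. Exons of the same kind are closer between genes, with 87.8% to 92.2% identity among flip exons and 87.8% to 94.8% among flop exons.

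Gria3 favoured flip where the other AMPA receptor genes favoured flop. The median share of the flip row in the sum of both rows was 38.6% for Gria1, 37.7% for Gria2, 35.2% for Gria4 and 65.3% for Gria3. The Gria3 share was above the shares of Gria1, Gria2 and Gria4 in 60 of 60 mice. No such order held among the other 3, where Gria1 was above Gria2 in 28 mice and below it in 32. The flip and flop rows had medians of 54 and 93 normalized counts in Gria1, 81.5 and 43.5 in Gria3 and 13 and 25 in Gria4. Exon rows of this length class held a median of 48.1% of the value per base of longer rows of the same gene, so that absolute levels of these short rows were understated. Whether flip and flop rows were understated alike was not tested.

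Between phenotypes no flip share passed the test. In Gria3 it was 49.1% to 78.0% in responders (median 63.3%, n = 30) and 47.9% to 80.4% in non-responders (median 67.8%, n = 30). The mean log2 ratio of flip to flop was 0.77 ± 0.38 (SD) in responders and 0.99 ± 0.48 in non-responders, a difference of -0.21 (SE 0.11), with a two-sided permutation p of 0.0614 and 0.246 after Benjamini-Hochberg adjustment over the 4 genes. The ranges of the phenotypes overlapped. In the 43 deep libraries alone the difference was -0.27 (SE 0.10, adjusted p 0.0434 by permutation), and in the 17 shallow ones -0.14 (SE 0.19, adjusted p 0.666 by exact permutation). Without mouse 63 it was -0.25 (adjusted p 0.110 by permutation). Gria1, Gria2 and Gria4 differed by 0.023 (SE 0.084), -0.018 (SE 0.059) and -0.053 (SE 0.16), each with an adjusted permutation p of 0.789.

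**Figure D1:**
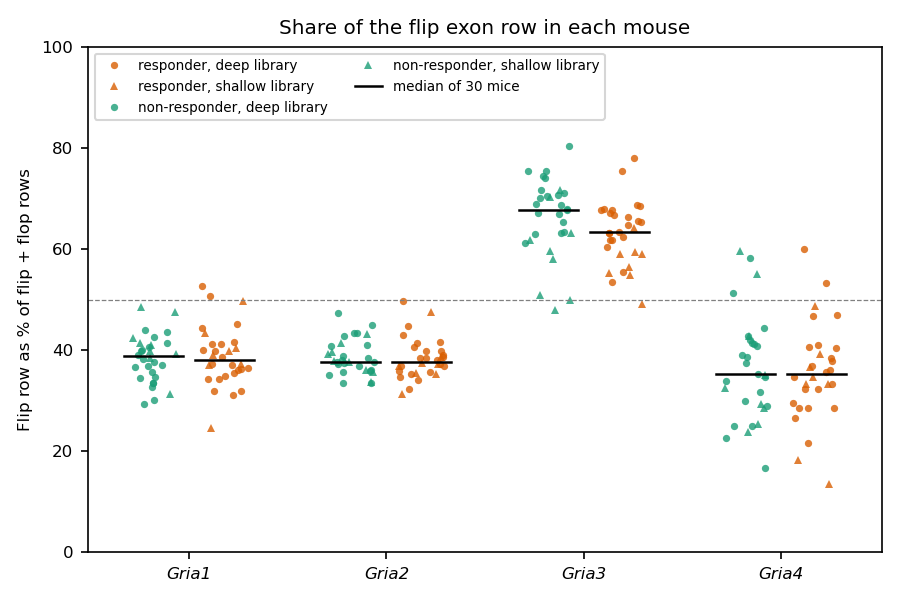
Share of the flip exon row in the sum of the flip and flop rows (%, vertical axis) for each AMPA receptor gene, 1 point per mouse, by phenotype (colour) and library depth (symbol), with the median of 30 mice as a bar. Gria3 lies above the other genes, with a median of 65.3% over all mice against 35.2% to 38.6%.

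Levels of different genes were compared only per length, as the mean normalized count per kilobase of the internal exon rows over 150 bases. Among AMPA subunits Gria2, whose edited product makes the channel impermeable to calcium, was highest, with a median of 2961 per kilobase over 8 rows (range 2095 to 4186). Gria1 followed with 1718 (1045 to 1980, 8 rows), and its rows did not overlap those of Gria2. Gria3 had 812 (315 to 1030, 6 rows) and Gria4 451 (237 to 597, 9 rows), and the rows of these 2 genes overlapped. The normalized count of Gria1 was 7433 to 11805 in responders (median 9445) and 7396 to 12778 in non-responders (median 10030). That of Gria2 was 10845 to 19193 (median 14654) in responders and 10398 to 18104 (median 14455) in non-responders. The ranges of the phenotypes overlapped for both genes.

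Among kainate subunits the auxiliary-type Grik5, which forms channels only with Grik1 to Grik3, had 1373 per kilobase (1136 to 1769, 7 rows). Grik2 had 449 and Grik3 296, and the rows of these 2 overlapped (310 to 576 and 235 to 450). Grik1 was lowest, with 53.3 per kilobase. Grik5 was 2718 to 4960 normalized counts in responders (median 3835) and 3125 to 4877 in non-responders (median 3990), and Grik3 was 1715 to 5449 (median 3789) and 2117 to 5623 (median 3853). The lowest Grik3 value, 1715, was that of mouse 63. Delta subunits bind the synaptic organizer cerebellin rather than glutamate. Grid1, of this family, had 413 per kilobase, and its count was 1201 to 2122 in responders (median 1760) and 1223 to 2111 in non-responders (median 1743).

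Grin1, the obligatory NMDA subunit, was 2588 to 6230 in responders (median 3938) and 2680 to 5872 in non-responders (median 4628). Its 9 exon rows include long merged ones, so that its 192 per kilobase over 3 rows was not set against the other subunits. Grin2b had 414, Grin2c 308, Grin2a 285 and Grin3a 108 per kilobase, with overlapping rows. These values rest on means over all 60 mice. The median count of Grin2b was 2791 in mice 41 to 56 and 832 in the other 44, and that of Grin2a 1281 and 624. Levels per kilobase without mice 41 to 56 were not computed, so the 4 genes are not ranked. Grin2c was 830 to 1938 in responders (median 1414) and 990 to 1928 in non-responders (median 1390). Grin2a and Grin2b stood apart by their spread, which is described below.

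Among metabotropic receptors Grm5, a group I receptor coupled to calcium release and abundant in medium spiny neurons, had 1059 per kilobase, and Grm3, a group II receptor, 968. Grm4 had 305, Grm7 274 and Grm8 61.6. Grm5 was 6016 to 13328 in responders (median 9779) and 6464 to 13742 in non-responders (median 9958). Grm3 was 1524 to 4140 (median 2872) in responders and 1651 to 4564 (median 3178) in non-responders. For both genes mouse 63 was the lowest of the 60.

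Of the GABA-A alpha subunits Gabra4, which pairs with Gabrd outside the synapse, had 1129 per kilobase (914 to 1372, 3 rows) and Gabra3 592 (572 to 680, 3 rows). Gabra4 was 3922 to 6386 (median 5042) and 3810 to 6176 (median 4996). The rows of these 2 genes did not overlap.

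Gabrb2, a beta subunit, was 4766 to 9709 normalized counts in responders (median 7526) and 4638 to 12543 in non-responders (median 7643). Gabrd, of extrasynaptic receptors, was 1293 to 2615 (median 1564) and 1061 to 2765 (median 1603). For each of these genes the ranges of the phenotypes overlapped.

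**Figure D2:**
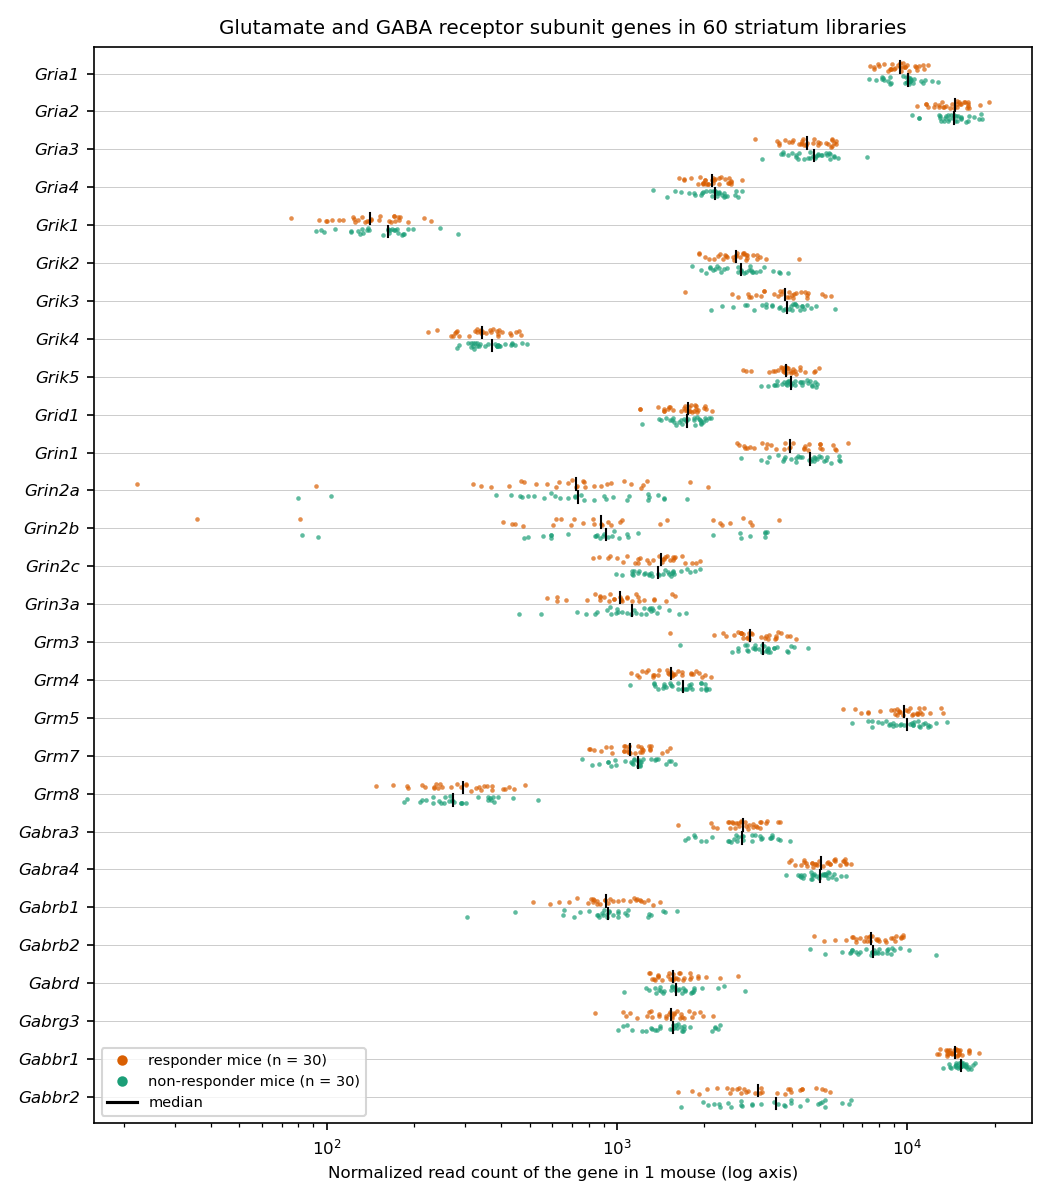
Normalized read count of 28 subunit genes (horizontal log axis) in each mouse, with responders above and non-responders below each line and the median of 30 mice as a black bar. Ranges of the phenotypes overlap for each gene drawn, and Grin2a (22.2 to 2062) and Grin2b (35.7 to 3619) are spread most widely.

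The first comparison asked whether subunit genes differed between catalepsy responders and non-responders. None of the 33 passed an adjusted p of 0.05 (limma with the trend option on log2(value + 1), sex as covariate, Benjamini-Hochberg adjustment over 8535 genes), where 9 genes, 0.105%, passed in the whole table. Gabbr1 alone had an unadjusted p under 0.05. edgeR's quasi-likelihood test and DESeq2 on the recovered reads also called 0, each with 1 unadjusted p under 0.05. On simulated counts with 200 of 8535 genes changed by 0.5 on the log2 scale, the limma fit recovered 99% of them at this sample size.

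Gabbr1, the GABA-binding subunit of the GABA-B receptor, was 13293 to 17123 in female non-responders (median 15301), 13556 to 17636 in female responders (median 14780), 13986 to 16544 in male non-responders (median 15290) and 12696 to 16330 in male responders (median 14095). The responder mean was 14604 ± 1098 (SD, n = 30) and the non-responder mean 15330 ± 868 (SD, n = 30). The log2 difference was -0.074 (SE 0.028, 95% confidence interval -0.13 to -0.02), with a limma p of 0.0111 and an adjusted p of 0.454. The ranges of the groups overlapped throughout.

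Grin1 followed with a log2 difference of -0.169 (SE 0.085, limma p 0.0501, adjusted p 0.768). Its medians were 4342 in female non-responders, 3954 in female responders, 4772 in male non-responders and 3763 in male responders. Grm4, a presynaptic group III receptor, differed by -0.118 (SE 0.061, adjusted p 0.813 in limma), with medians of 1673, 1555, 1697 and 1499 in the same order of groups. In both genes the responder median was the lower one in either sex, and the ranges overlapped. Grik5 (-0.081, SE 0.049) and Grik4 (-0.091, SE 0.064) were next by p. The medians of Grik4 were 338 in female non-responders, 340 in female responders, 388 in male non-responders and 355 in male responders.

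Over the 33 genes the responder value was the lower in 26 and the higher in 7, and the median log2 difference was -0.042 against -0.0033 over all 8535 genes. With 3′ bias as a covariate 14 were higher, with a median of -0.012, and without mouse 63, a responder, 12 were higher, with a median of -0.024. These genes vary together across mice and are not independent. The 95% interval lay wholly within ±0.2 for 17 of the 33. It was widest for Grin2b, at -0.82 to 0.55, and Grin2a, at -0.73 to 0.40.

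**Figure D3:**
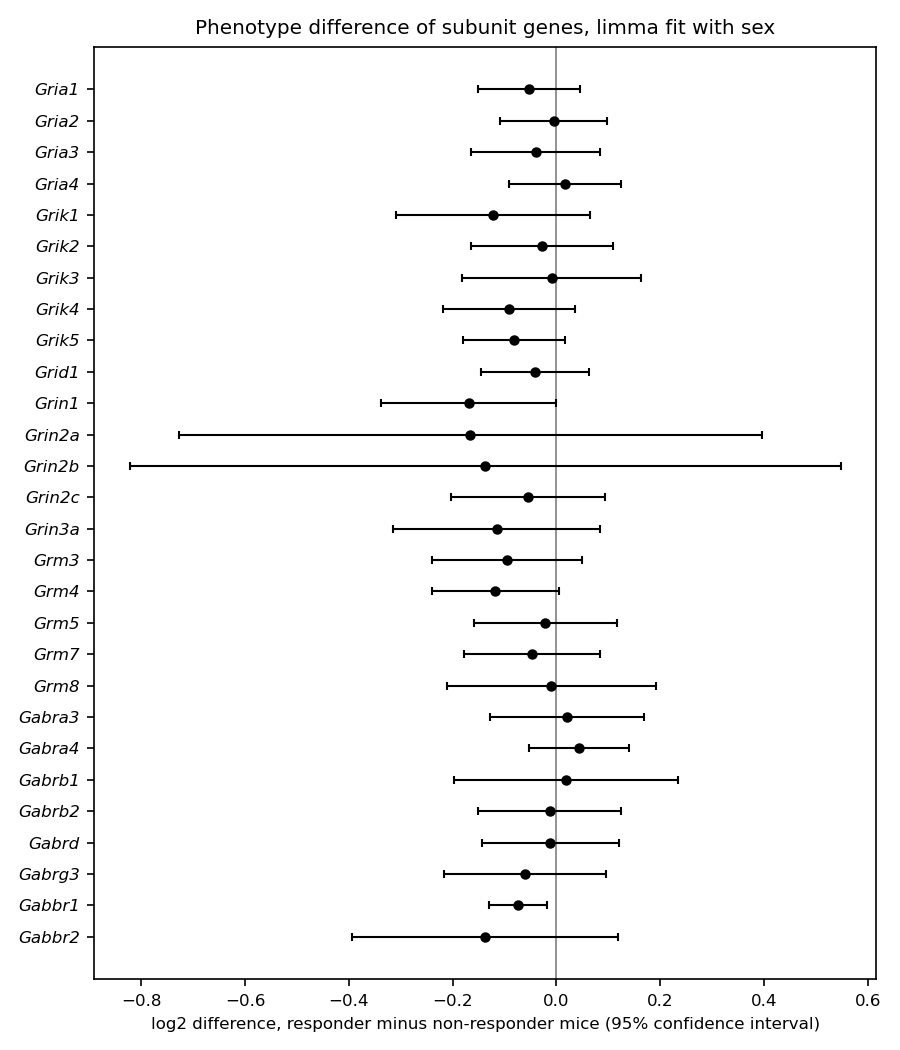
Difference between responder and non-responder mice on the log2 scale (horizontal axis) for 28 subunit genes, with its 95% confidence interval from the limma fit with sex. The interval of Gabbr1 alone lies wholly below 0, and its adjusted p is 0.454.

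Between males and females no subunit gene passed in the same limma fit (3 of 8535 genes passed, 0.0351%) and none had an unadjusted p under 0.05; edgeR and DESeq2 also gave 0 of both. Grin3a had the smallest p, with males lower by a log2 difference of -0.16 (SE 0.10, adjusted p 1.00 in limma). The phenotype effect did not differ detectably between sexes for any subunit gene, nor for any gene of the table (0 of 8535, 0%). The smallest unadjusted p of the interaction among the subunit genes was 0.213, for Grik4, so none was under 0.05.

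The exon usage of a row was its log2 value minus that of the sum of the gene's rows. None of the 369 rows passed for phenotype in limma (14 of 66690 rows passed in the table, 0.021%), and 11 had an unadjusted p under 0.05. None passed for sex (0 of 66690, 0%), with 5 unadjusted p under 0.05. The limma diffSplice test gave 0 of both, with 5 and 2 rows under 0.05 unadjusted. The smallest p belonged to row 18 of Gria4, counted from the 5′ end, a 135-base exon just after the flip exon. It held 1.41% to 3.81% of the gene in responders (median 2.46%) and 1.92% to 3.53% in non-responders (median 2.71%), a usage difference of -0.17 (SE 0.061, adjusted p 0.690 in limma). Rows 7 and 2 of Grid1 came next, with usage differences of -0.18 and -0.20 and adjusted p of 0.798 and 0.897 in limma.

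Other genes of these synapses, a list of auxiliary subunits, scaffolds, RNA editing enzymes and enzymes and transporters of the transmitters, gave the same counts. Of 30 auxiliary and scaffold genes, 3 editing genes and 9 transmitter genes in the table, 0 were higher and 0 lower in responders in limma, and 1 had an unadjusted p under 0.05. That gene was Grip2, an AMPA receptor scaffold, with a log2 difference of -0.14 (SE 0.069, adjusted p 0.757). None passed for sex, where 2 had an unadjusted p under 0.05. Between shallow and deep libraries 9 of the 30 auxiliary genes were higher and 4 lower, 1 of the 3 editing genes was higher and 1 of the 9 transmitter genes was lower, where 53% of all tested genes passed. The median log2 differences between phenotypes were -0.039, 0.0044 and -0.026 for the 3 lists.

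Several subunit genes followed a score of cortical excitatory neuron markers across mice. The striatum was dissected by hand beside the cortex, and 4 of 10 such markers were in the table (Tbr1, Lhx2 and Cux2 among them), whose mean log2(value + 1) was from 7.72 to 10.7. Their summed count was from 1124 to 6199 in responders and from 2084 to 6980 in non-responders, and none of the 4 was at 0. Of the 33 genes 15 correlated positively and 2 negatively with the score at an adjusted p under 0.05 (permutation test, n = 60, Benjamini-Hochberg adjustment over 33). The share of all tested genes that followed the score was not computed, so this count does not set the receptor genes apart from other genes.

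Gabbr2, the G protein-coupling partner of Gabbr1, followed the score most closely, with Pearson's r = 0.859 and Spearman's rho = 0.904 (permutation p 1e-05 for each, the smallest that 100000 resamples can give; adjusted p 4.71e-05). It was 1629 to 5428 in responders (median 3055) and 1663 to 6421 in non-responders (median 3544). Its r was 0.888 in the deep and 0.825 in the shallow libraries and 0.897 without the 2 mice farthest from the median score. Gabra3 and Grm8 had r = 0.834 and 0.809 with rho = 0.854 and 0.841 (permutation p 1e-05 for each). Without the same 2 mice these were 0.827 and 0.808, and they were 0.845 and 0.817 in deep and 0.860 and 0.839 in shallow libraries. All 3 genes therefore varied with the markers within either depth class.

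Gabbr1 did not follow the score. Its r was -0.0149 and its rho -0.0311 (permutation p 0.910 and 0.813), and its coefficient of variation over mice was 7.0% against 35.4% for Gabbr2. Its SD of log2 values was at the 0.562 percentile of the tested genes and that of Gabbr2 at the 92.3 percentile. The 2 subunits of the same receptor had r = 0.109 with each other (rho = 0.17, permutation p 0.407 and 0.195; 0.131 in deep and 0.124 in shallow libraries). Grik2 had the strongest negative relation with the score, r = -0.421 (rho = -0.462, permutation p 0.00092 and 0.00018, adjusted p 0.00234), with -0.404 in deep and -0.566 in shallow libraries. Grm4 was the other, with r = -0.303 (rho = -0.349, adjusted permutation p 0.0418), with -0.310 in deep and -0.300 in shallow libraries. In the 17 shallow libraries alone 6 of the 33 correlations passed, and Grik2 and Grm4 were not among them (adjusted permutation p 0.0707 and 0.462). Without mouse 63 it was 15 of 33, and Grin2b was among those that lost the call (adjusted permutation p 0.0635). The part of cortical tissue in these relations was not tested.

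**Figure D4:**
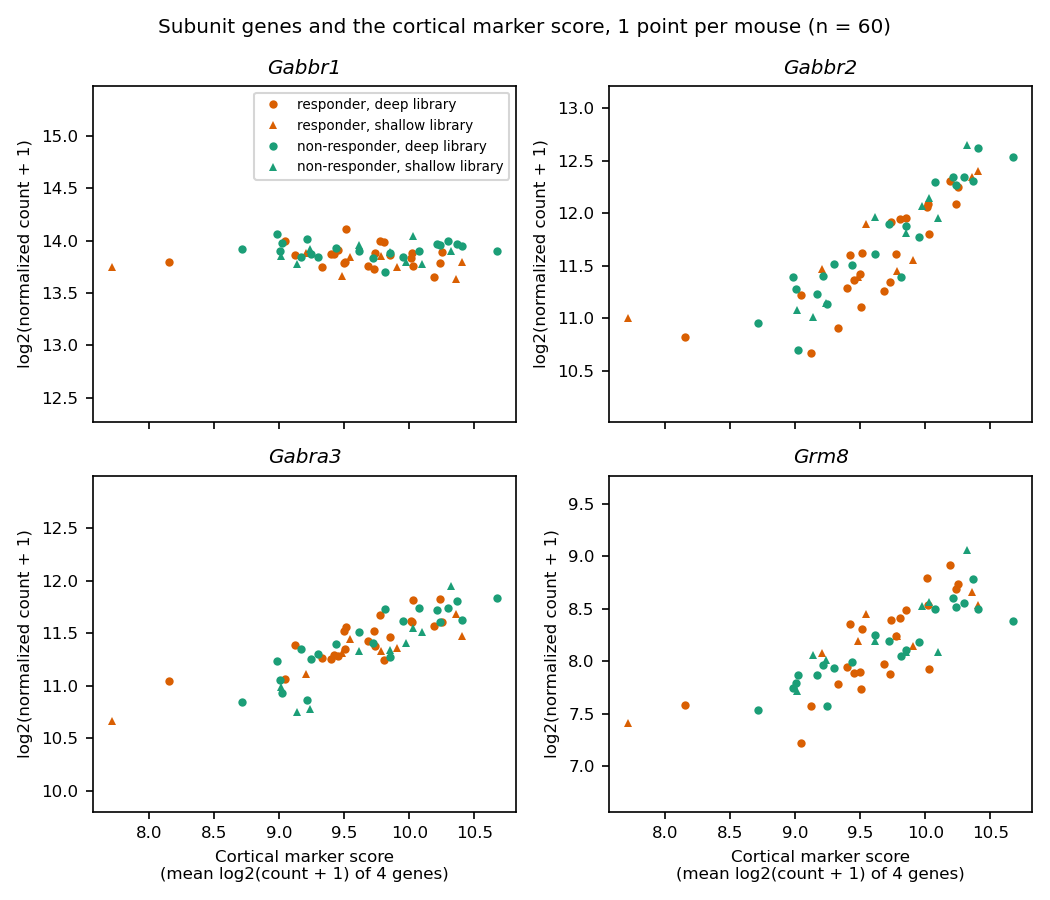
log2(normalized count + 1) of Gabbr1, Gabbr2, Gabra3 and Grm8 (vertical axes, each spanning 3.2 log2 units) against the cortical marker score (mean log2(normalized count + 1) of 4 genes), 1 point per mouse, by phenotype (colour) and depth (symbol). Gabbr2, Gabra3 and Grm8 rise with the score (r = 0.859, 0.834 and 0.809) and Gabbr1 does not (r = -0.0149).

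Subunits known to assemble together were compared across mice in 18 fixed pairs, of which 14 had both genes in the table. In 12 of them the correlation passed (adjusted permutation p under 0.05, n = 60), 11 positive and 1 negative. With 3′ bias held fixed 10 pairs passed, in deep libraries alone 10, in shallow ones alone 9, and without mouse 63 it was 11, all positive. Pairs of other genes were not compared, so these counts do not set partner subunits apart from other pairs. Grin2a and Grin2b were closest, with r = 0.956 and rho = 0.932. Their permutation p was 1e-05 and the adjusted p 1.75e-05. Without the 2 farthest mice r was 0.945, and it was 0.968 in deep and 0.900 in shallow libraries. With 3′ bias held fixed it fell to 0.768. The deep libraries include mice 63, 5, 4 and 62, and the shallow ones mouse 26, all of low values for both genes.

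Among AMPA genes Gria2 had r = 0.664 with Gria1, 0.733 with Gria3 and 0.632 with Gria4 (rho 0.676, 0.688 and 0.551). Grin1 had r = 0.473 with Grin2a and 0.429 with Grin2b (rho 0.474 and 0.495, adjusted permutation p 0.000171 and 0.000868). Grik2 and its partner Grik5 did not correlate (r = -0.0472, rho = -0.113, permutation p 0.722 and 0.390). The 1 negative pair, Gabra4 and Gabrb1, had r = -0.278 (rho = -0.307, adjusted permutation p 0.0368), and the relation did not hold within depth classes, with 0.123 in deep and -0.0642 in shallow libraries, and lost its call without mouse 63 (adjusted permutation p 0.0528).

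Grin2a and Grin2b had the widest spread of the 33 genes, and both ends of it were particular libraries. Their coefficients of variation were 53% and 75.9%, and their SDs of log2 values were at the 98.6 and 99.1 percentiles of the tested genes. In the 4 mice of strongest 3′ bias Grin2a had 22.2 (mouse 63), 79.5 (mouse 5), 91.6 (mouse 4) and 103 (mouse 62) normalized counts. The other 56 mice were between 320 and 2062. Grin2b had 35.7, 82.3, 80.7 and 93.6 in the same mice against 406 to 3619 in the other 56. Mouse 63 thus held 2.93% of the median of the 56 for Grin2a and 3.84% for Grin2b.

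These mice were low for other subunit genes too. In mouse 63, 14 of the 33 genes were below all 56 other mice, against 26.7% of the tested genes, and 1 was above them, against 28.7%. In mouse 5 it was 12 below (19.4% of tested genes) and 1 above (17.5%), in mouse 4 it was 8 below (16.3%) and 0 above (12.6%), and in mouse 62 it was 9 below (18%) and 0 above (15.9%). Below the 56 in all 4 mice were 7 of the 33 genes, among them Gabrb1, Gabrb2, Grik3, Grin2a, Grin2b and Grin3a. The share of all tested genes below in all 4 mice was not computed. Gabrd was the gene above them, with 2615 in mouse 63 and 2765 in mouse 5 against 1061 to 2340. The 4 libraries thus lay at the low end for many of the receptor genes, and each also for 16.3% to 26.7% of the tested genes.

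In mouse 63 the last exon row took a larger share of several of these genes. The last row of Gria2 held 79.3% of the gene in mouse 63 against a median of 45.2% over all mice, that of Grm5 94.6% against 64.8%, that of Gria3 82.8% against 51.8% and that of Grin1 63.6% against 27.1%. Grin2a and Grin2b had only 23 and 37 reads in mouse 63. Their last row held 0% and 2.70% of the gene there against medians of 0.143% and 7.17%. So few reads cannot give a direction for these 2 genes. Grm3 and Grm4 also had a last row of low share, with medians of 9.95% and 0.416% against 20.01% and 1.09% in mouse 63. The level of Grm3 in mouse 63 was 48.3% of the median of the 56 mice, and that of Grm4 was 76.5%. The part of the coverage in the gene levels was not tested.

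At the other end of the range lay the mice numbered 41 to 56. Grin2b was 2140 to 3619 in these 16 mice (median 2791) and 35.7 to 1487 in the other 44 (median 832), with no overlap. The next highest was mouse 40, a deep library, with 1487, and mouse 26, the shallow library outside this run of numbers, had 678. Grin2a was 834 to 2062 in the 16 mice (median 1281) and 22.2 to 1083 in the others (median 624), where 14 of the 16 were above all others. Gabrb1, a beta subunit, was 1084 to 1605 in the 16 mice (median 1281) and 305 to 1171 in the others (median 871), where 12 of the 16 were above all others. Both phenotypes and both sexes were among the 16. These mice also stood apart in coverage. Their 3′ bias was -0.306 to -0.168, below that of each of the other 44, which started at -0.151 and included mouse 26 at -0.0145. The run of numbers and the shallow class differ only by mouse 26, so that depth, coverage and run of numbers cannot be told apart here.

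**Figure D5:**
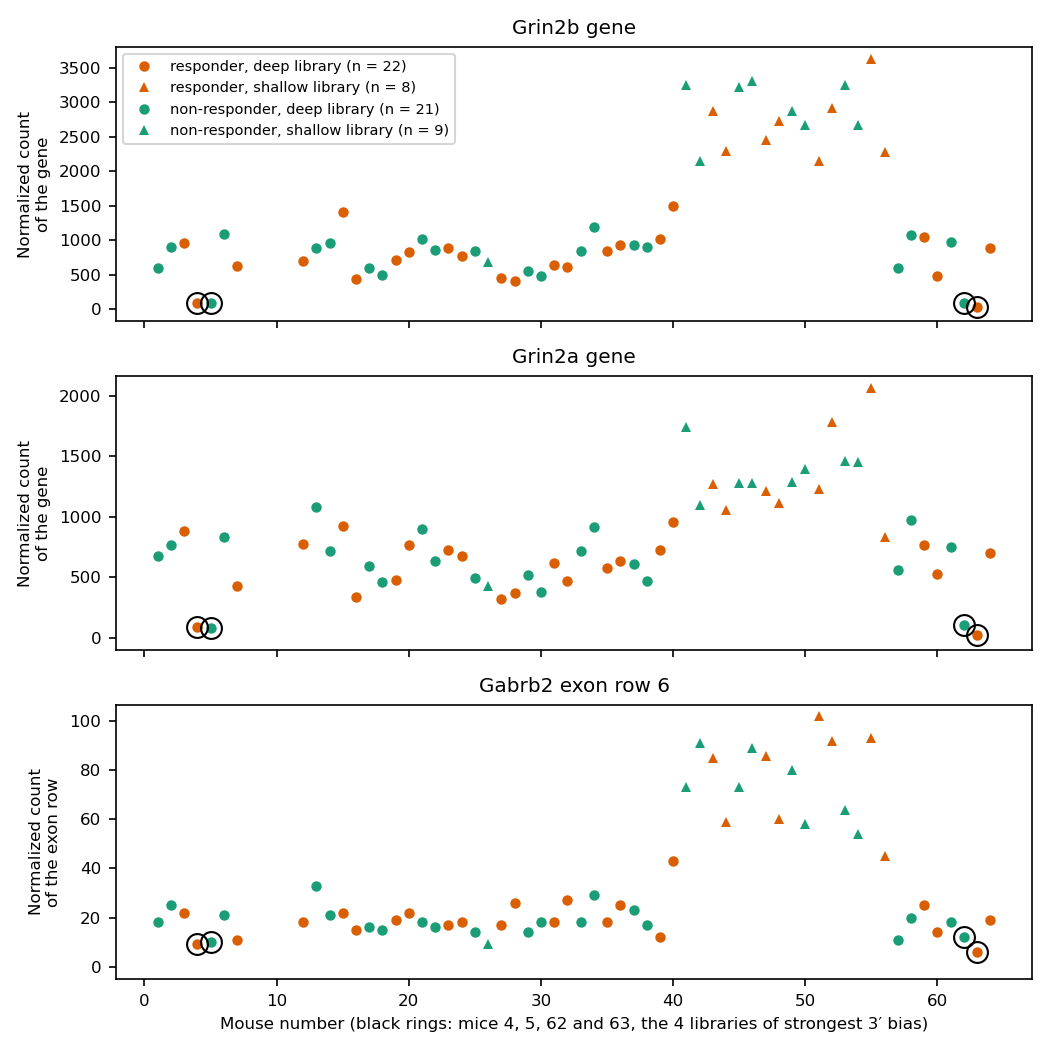
Normalized counts of Grin2b, Grin2a and row 6 of Gabrb2 (vertical axes) by mouse number, with phenotype in colour, shallow libraries as triangles and rings around the 4 mice of strongest 3′ bias. Mice 41 to 56 lie above the other 44 for Grin2b (2140 to 3619 against 35.7 to 1487) and for the Gabrb2 row (45 to 102 against 6 to 43).

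Shallow and deep libraries were then compared across all genes, with phenotype and sex in the limma fit, a comparison added after the values were seen. Of the 33 genes 12 were higher and 4 lower in shallow libraries, where 53% of the 8535 tested genes passed, so that the share of these genes (16 of 33) was near that of the table. Grin2b differed most, by a log2 difference of 2.03 (SE 0.28, adjusted p 2.79e-08), then Grin2a by 1.26 (SE 0.27, adjusted p 0.000112) and Gabrb1 by 0.60 (SE 0.092, adjusted p 3.11e-07). Among the others that were higher were Grik1 (0.38), Grm3 (0.33), Gabrg3 (0.29), Grm7 (0.26), Grin3a (0.25), Grik3 (0.23) and Grik2 (0.23). Gabra4 (-0.21) and Gabrd (-0.17) were among the lower. Cell type markers were read in the same fit, where 53% of all tested genes passed. Of 3 thalamus markers 2 were in the table and both were higher in shallow libraries, Lef1 by 0.69 (adjusted p 4.22e-09) and Tcf7l2 by 0.52 (adjusted p 0.000925), at medians of 78.4 and 108 normalized counts over all mice. Of 9 medium spiny neuron markers 3 were lower, of 4 cortical markers 1 and of 5 oligodendrocyte markers 1. No astrocyte, interneuron, microglia or endothelium marker passed. These counts do not set the markers apart from other genes, and the part of cell types in the result was not tested.

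With the 3′ bias of each mouse as a covariate the count fell to 7. This covariate is related to the depth class, since mice 41 to 56 had the lowest bias of all. Its widest range lay among deep libraries, with mice 63, 5, 4 and 62 highest. The fit takes bias as a straight line, and the parts of depth and coverage in what remains were not tested. The Grin2b difference was then 0.98 (adjusted p 1.10e-06 in limma), Gabrb1 had 0.33 (adjusted p 0.0008) and Grin2a 0.24 (adjusted p 0.230). Without mice 63, 5, 4 and 62, in place of that covariate, Grin2b had 1.70 (adjusted p 5.99e-16), Grin2a 0.96 (adjusted p 8.47e-09) and Gabrb1 0.51 (adjusted p 2.01e-10 in limma). Grin3a and Gabrd lost the call without mouse 63 (adjusted p 0.0520 and 0.0524 in limma).

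In exon usage 126 of the 369 rows were higher and 41 lower in shallow libraries in limma, where 36% of 66690 rows passed. The smallest p was that of row 6 of Gabrb2, at 45 to 102 normalized counts in mice 41 to 56 (median 76.5) and 6 to 43 in the other 44 mice (median 18), with no overlap. Mouse 26, a shallow library, had 9, and mouse 40, a deep one, had 43, the highest of the 44. Its share of the gene was 0.14% to 1.57% in shallow libraries (median 0.885%) and 0.126% to 0.443% in deep ones (median 0.246%), a usage difference of 1.74 (SE 0.14, adjusted p 4.47e-15). The annotation has exons of 83 bases, in coding transcripts, and of 2211 bases, in a processed transcript, at its start.

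Row 13 of Gabbr1, annotated only as a 410-base retained intron, was 37 to 129 in shallow libraries (median 68) and 8 to 64 in deep ones (median 40), a usage difference of 0.96 (SE 0.14, adjusted p 2.33e-07 in limma). Its ranges overlapped between the classes.

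Among the 8 rows of largest SD of usage were row 4 of Gabrg3, row 6 of Gabrb2, row 7 of Grik5, row 3 of Gabrb2, row 20 of Grik1 and row 2 of Grin2b. Row 4 of Gabrg3, annotated as a 1356-base exon in a coding transcript, was 2 to 107 normalized counts over the 60 mice (median 25). Of its 10 highest mice 9 were shallow libraries. Shallow libraries were 10 of the 10 highest for row 6 of Gabrb2 and row 2 of Grin2b. They were 3 of 10 for row 20 of Grik1. Rows of low count are noisy, and the counting error alone gave the Gabrg3 row an SD of 0.394 against 1.13 observed.

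The flop row of Gria3, at the exon printed above, was among the rows higher in shallow libraries. It was 38 to 87 normalized counts in shallow libraries (median 60) and 9 to 77 in deep ones (median 42), a usage difference of 0.66 (SE 0.12, adjusted p 1.70e-05 in limma). The flip share of Gria3 accordingly had a median of 58.9% in shallow and 67.2% in deep libraries. In Gria1, Gria2 and Gria4 the medians of the 2 classes were 39.9% and 37.2%, 37.4% and 38.1%, and 33.3% and 36%. Gria3 stayed above the other 3 genes in both classes.

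The connectivity of each gene was computed in 3 networks of all 9066 genes, with edges raised to the power 6, and is given as a description. In the coexpression network, built on Pearson correlation, the 33 genes had a median percentile of 60.4 (1.32 to 94.4), with Grik3 highest and Grik5 and Gabbr1 (5.53) lowest. In the cosplicing network, which compares mice by the cosine distance of their exon vectors, the median was 88.5 (38 to 99.7), Gria1 was highest, and 15 of 33 were above the 90th percentile. In the CoSplicEx network, with the Canberra distance, it was 80.7 (5.27 to 98.2), with Gabrb2 highest and Gabrd lowest, and 7 genes were above 90. Gabbr1 and Gabbr2 were apart in coexpression (5.53 and 81.0) and in cosplicing (73.6 and 98.1). They were closer in CoSplicEx (80.8 and 78.2, or 70.7 and 82.6 without mouse 63). Without mouse 63 the medians were 63.4, 86.3 and 83.2, and 11 genes were above 90 in CoSplicEx.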

How the data were processed

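Per the labels, striatum was dissected by hand and polyA libraries were made by the TruSeq protocol. The authors aligned reads with Bowtie 0.12.7 to mm9 and counted them on Ensembl gene models. The deposited gene table is a signal, each library's read counts times its upper quartile factor from edgeR 3.4.2. Its smallest step gave back whole reads, within 6.53e-05 reads. The deposited exon table is a score, counts scaled likewise and rounded by the authors. Each mouse is 1 replicate, and precision comes from the spread between mice.

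Genes and exon rows averaging at least 10 were tested with limma 3.58.1 (trend) on log2(value + 1), with edgeR 4.0.16 (TMM, quasi-likelihood) and DESeq2 1.42.0 on recovered reads as alternatives, in R 4.3.3, with Benjamini-Hochberg adjustment over all features and a threshold of 0.05. A fold change on this scale understates that of low genes. Single values used permutation tests of 100000 resamples (SciPy 1.17.1, Python 3.11.15). The limma fits of genes and of exon usage and the edgeR fit were tested on simulated data, and DESeq2 and diffSplice were not. Symbols were given for 97.7% of the genes. Named were the 2 members of each family with the highest mean count per kilobase of all annotated exon bases, not of the internal rows above. Also named were the called members and rows (up to 10 by adjusted p), the 5 members and rows of smallest p for phenotype, and the 5 members and 8 rows of largest SD. Other rows were picked after their values were seen. Members and lists were chosen with earlier results of these data known. Depth class, 3′ bias, cortical score, filters, pseudocount 0.5 and leaving out mouse 63 were tried as alternatives. The results of some members and of a marker are not reported here.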

Additional observations from a re-analysis of the deposited data

How the results depend on the processing

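The counts of subunit genes and rows called for phenotype and for sex, and of subunit genes called for their interaction, were 0 under every alternative run. With 3′ bias as a covariate, which is lowest in mice 41 to 56, the calls between shallow and deep libraries fell from 16 to 7 genes and from 167 to 86 rows. In deep libraries alone 1 of the 4 flip to flop ratios passed, that of Gria3, and in shallow libraries alone 6 of 33 correlations with the cortical score passed in place of 17, with fewer samples. Without mouse 63 the median connectivity percentiles were 63.4, 86.3 and 83.2.

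Uncalled phenotype differences changed sign for Gabrd (0.059) in females alone and for Gabra4 (-0.062) in shallow libraries alone, and the sex difference of Grik1 was 0.0040 there. With 3′ bias as a covariate the shallow minus deep difference became -0.015 for Grin3a and 0.018 for Gabrd, and that in usage -0.40 for row 3 of Gabrb2 and 0.40 for row 2 of Grin2b. The flip to flop difference became -0.14 for Gria1 in shallow libraries and 0.11 for Gria4 in males, and the correlation of Gabra4 with Gabrb1 was 0.123 in deep libraries. The cause was not tested. A further 27 uncalled differences crossed 0 within 1 standard error. No paired analysis was possible because the labels give no replicate numbers, and those used here only name the mice of a group in accession order. Depth limits the rows of few reads, and exon rows of up to 75 bases could not be read, with 21 of 28 averaging under 1. Comparisons of depth classes, and the flip ratio in shallow libraries, were chosen after seeing the data.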
